A study of Mus musculus with 20 samples.

Results

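Mesenchymal mouse mammary tumour cells in which Tet2 was knocked down and histone deacetylases were inhibited at the same time were compared with the same cells without either treatment. The comparison rests on 4 of the 20 libraries of the series: 2 of clone M3 with an shRNA against Tet2 plus CI994, called the joint group here, and 2 of M3 with a control shRNA (shControl) and no CI994, called untreated. M3 is a stable mesenchymal clone of Py2T, a line derived from a breast tumour of the MMTV-PyMT mouse, in which a viral promoter drives the polyoma middle T oncogene in mammary epithelium. CI994 was given at 2 µM for 72 hours. The single treatments, shTet2 without CI994 and shControl with CI994, had 2 libraries each, and the matching pair of groups with an shRNA against Mbd3 entered the fit only to estimate the spread. Levels in that pair are printed for a few genes only. All 12 libraries carry an shRNA and come from 1 clone, the labels name 1 shRNA per target, and they mention no vehicle for cells without CI994. Total RNA was taken in 2 independent experiments per the labels. Of 24454 genes in the deposited values, 12808 had a level of at least 0.5 CPM (reads of the gene per 1000000 reads counted in genes) in 2 or more of the 12 libraries and were tested.

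Tet2 is an enzyme that oxidises methyl groups on cytosine in DNA, a step towards their removal. CI994 blocks class I histone deacetylases, enzymes that remove acetyl groups from histones and are part of repressor complexes such as NuRD. In the epithelial-mesenchymal transition, epithelial cells lose junction proteins such as E-cadherin and gain a migratory, matrix-producing state under transcription factors of the Zeb, Snail, Twist and Prrx families. The series title names deacetylases, Mbd3/NuRD and Tet2 in this plasticity as its subject.

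Tet2 itself (Entrez gene 214133, chr3:133463677-133545136) was measured at 15.1 and 13.8 CPM in the untreated libraries and at 6.30 and 7.42 CPM in the joint libraries. It stood at 8.41 and 7.97 CPM with shTet2 alone and at 8.13 and 11.4 CPM with CI994 alone, so the single treatments overlapped while both joint libraries were the lowest of the 8. The joint log2 change was -1.07 ± 0.18 (SE, adjusted p = 0.00149, limma over all genes tested). CI994 alone also passed, at -0.60 (adjusted p = 0.0361). Within CI994-treated cells the knockdown difference was -0.47 and did not pass (adjusted p = 0.127).

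The libraries held 16086082 to 24977595 reads. The untreated replicate 1 stood apart from replicate 2 along the GC content of genes: with genes divided into GC deciles, the median log2 difference of replicate 1 minus replicate 2 was lower by 1.77 in the top decile than in the bottom one, a change of -1.77, against changes of -0.387 to 0.0140 in the other 5 pairs. The same library had Mbd3, a NuRD subunit, at 5.40 CPM, against 66.5 CPM in untreated replicate 2 and 82.2 and 86.3 CPM in the joint libraries. The joint log2 change of Mbd3 was 2.05 and did not pass (adjusted p = 0.0533), and it was 0.36 without that library and 0.83 with the GC trend removed. The joint group against untreated replicate 1 went from a median log2 difference of -1.02 at low GC (median 39.6%) to 1.63 at high GC (59.4%). Against replicate 2 the same span was -0.37 to 0.45, against shTet2 alone -0.40 to 0.53, and against CI994 alone -0.10 to 0.24. A smaller slope in the same direction was therefore present in comparisons that do not use the untreated pair, and its part in the gene changes was not tested. Where leaving out untreated replicate 1 or removing each library's GC trend ended the call of the joint change for a named gene or moved it by more than 1.5-fold, that value is given with the gene or in the paragraph on GC content after the gene lists.

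**Figure D1:**
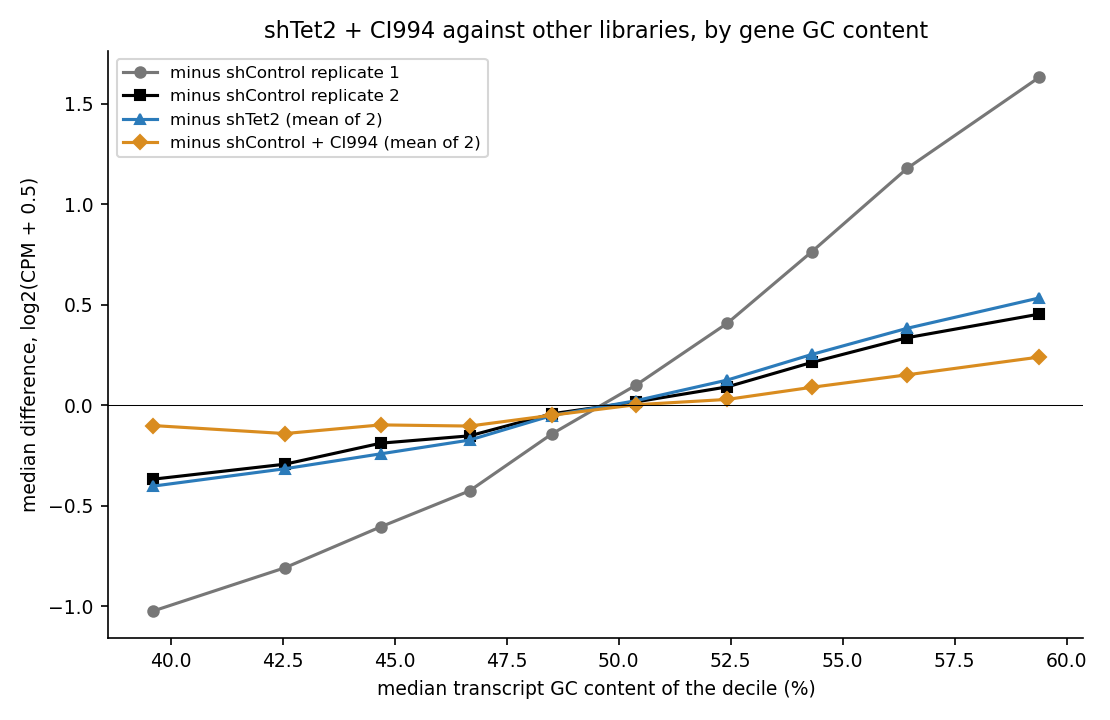
Median log2(CPM + 0.5) difference of the joint group (y axis) against the median GC content of transcripts in 10 GC deciles (x axis, percent), with 1 line per reference library or group. The line against untreated shControl replicate 1 runs from -1.02 to 1.63, while that against shControl replicate 2 runs from -0.37 to 0.45.

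Most genes tested differed between the joint group and untreated cells: 7558 of 12808 passed at an adjusted p under 0.05, which is 59% of genes. Of these 3807 rose (29.7%) and 3751 fell (29.3%). Rises were the larger changes, with 2023 rising and 1154 falling at least 2-fold, and 100 rising and 53 falling at least 8-fold. Without untreated replicate 1, 6979 genes passed (54.5%). Among the genes above, 3158 of the 3807 rises and 3096 of the 3751 falls still passed in the same direction. The genes that rose had a median GC content of 54.2% and those that fell 44.8%, beside 49.5% over all genes tested. On its own, shTet2 changed 2994 genes (23.4%), with 10.4% of genes rising and 12.9% falling. CI994 alone changed 4303 genes (33.6%), with 17.9% rising and 15.7% falling. These comparisons share the untreated libraries with the joint change. In bulk samples such as these, fewer cells of a kind and less RNA per cell cannot be told apart.

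The largest rises included Epha1, an ephrin receptor tyrosine kinase, at 2.15 and 2.92 CPM in untreated cells and 162 and 156 CPM in the joint group. Its log2 change was 5.69 ± 0.13 (adjusted p = 5.23e-08), and both single treatments lay between, at 30.9 and 30.2 CPM with shTet2 and 11.8 and 13.1 CPM with CI994. U90926 rose by a log2 change of 5.30 and Rom1, a tetraspanin of photoreceptors, by 4.76, with Rom1 at 1.65 and 2.97 CPM against 73.3 and 77.0 CPM. The voltage-gated sodium channel gene Scn3a went from 0.0458 and 0.192 CPM to 21.4 and 15.2 CPM, a log2 change of 4.90 ± 0.20. B4galnt3, a glycosyltransferase, rose by 4.46, and its 43.4 and 43.9 CPM in the joint group sat close to the 37.6 and 36.7 CPM of shTet2 alone. Myh14, a non-muscle myosin heavy chain, rose by 4.68, the basal keratin Krt14 by 4.58, the tight junction gene Cldn3 by 4.51 and the MHC class Ib gene H2-Q5 by 4.41. These values lean on untreated replicate 1, in which all 4 were lower than in replicate 2, and without it they were 3.78, 3.87, 2.89 and 3.45, all still passing. H2-Q5 has near-identical relatives, so its counts are uncertain.

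The largest falls included receptors and secreted factors. Il1rl1, the interleukin-33 receptor, fell from 119 and 116 CPM to 0.803 and 0.849 CPM, a log2 change of -6.51 ± 0.30 (adjusted p = 1.21e-06). Plce1, a phospholipase C, fell from 116 and 125 CPM to 1.14 and 1.07 CPM (-6.27), but shTet2 alone already had it at 0.803 and 1.34 CPM. Grem1, a secreted antagonist of bone morphogenetic proteins, changed by -5.96, the collagen-binding receptor Antxr1 by -5.73 and the chondroitin sulfotransferase Chst11 by -5.61. For Chst11 the joint libraries, at 1.44 and 0.671 CPM, were above the 0.378 and 0.0996 CPM of shTet2 alone (difference 1.03, adjusted p = 0.0188). Itga8, an integrin subunit, went from 36.2 and 30.2 CPM to 0.423 and 0.268 CPM (-5.35 ± 0.19). The transcription factor Sox5 changed by -5.08 and the membrane-anchored semaphorin Sema7a by -4.98. Olfm1, which encodes a secreted glycoprotein, had 799 reads in the untreated pair and 2 in the joint pair, a ratio of 430 (95% counting interval 119 to 3560). Tafa5, a small secreted protein, had 562 reads against 1, a ratio of 606 (108 to 23960). Counting intervals here and below cover counting error only.

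**Figure D2:**
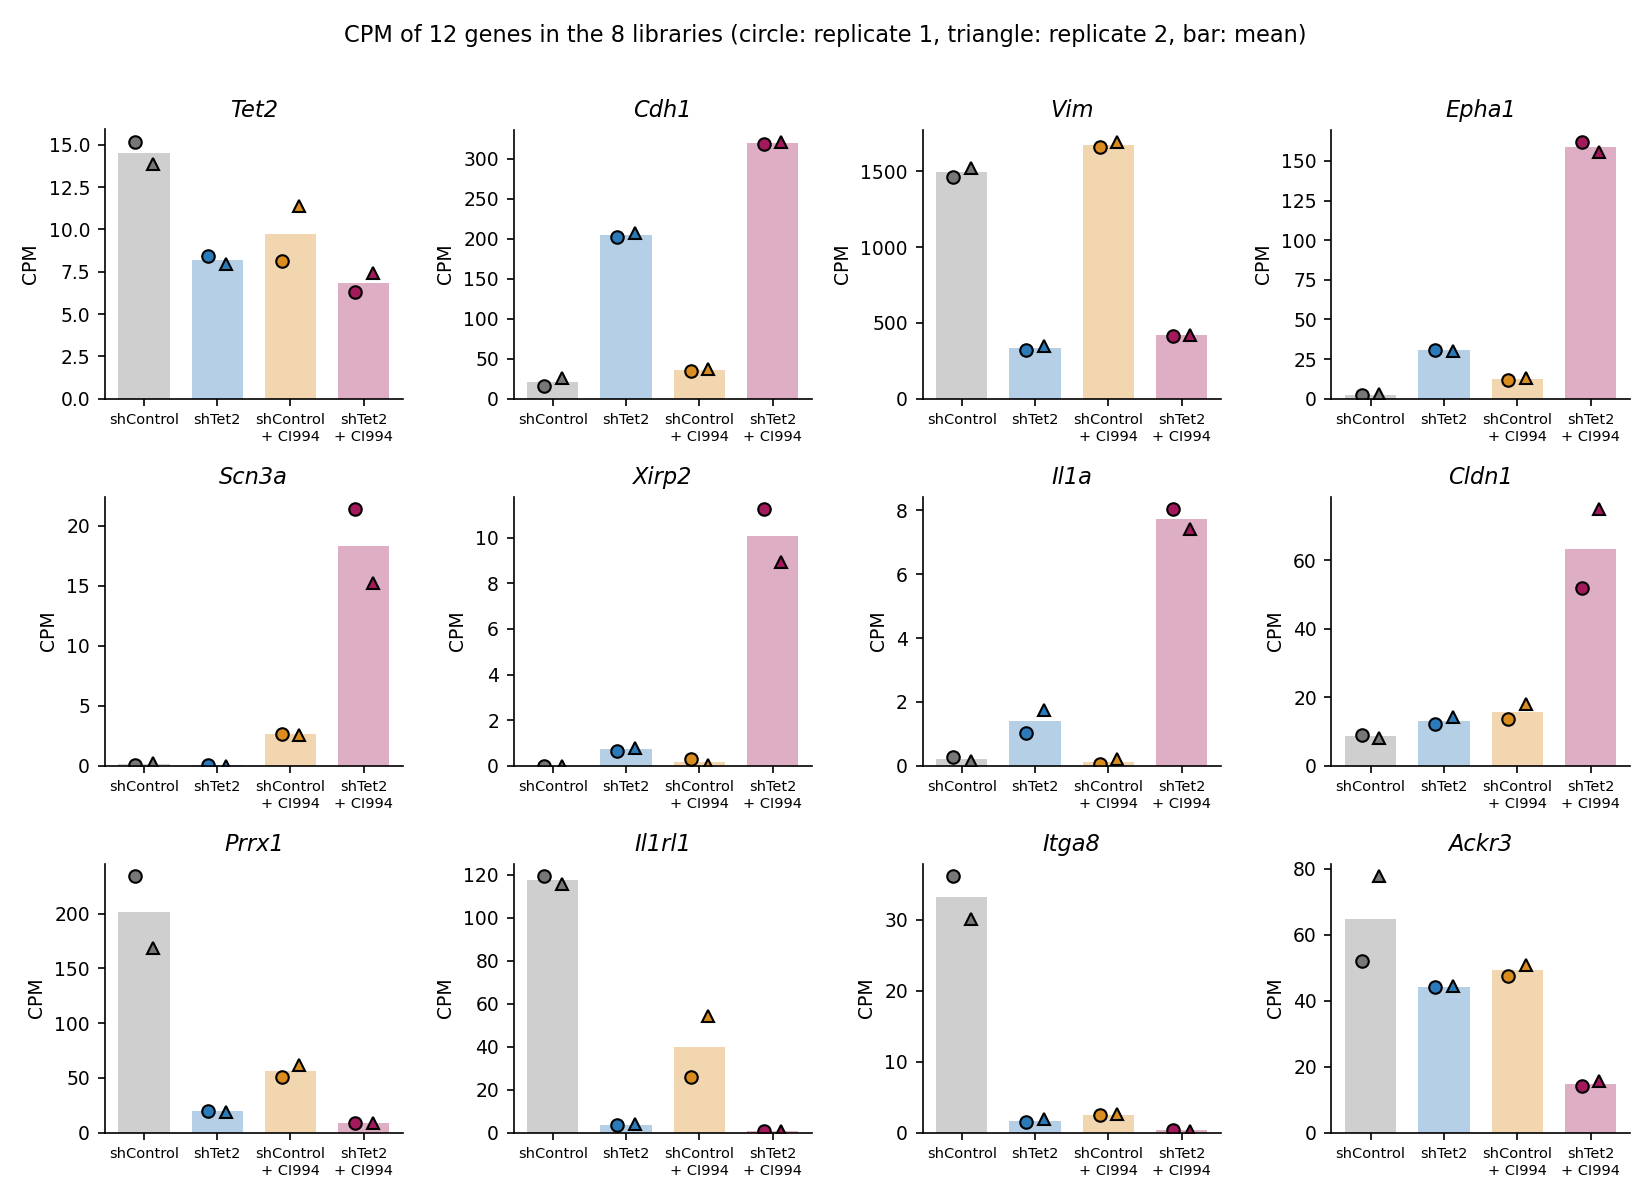
CPM (y axes, linear from 0) of 12 genes in the 2 libraries each of shControl, shTet2, shControl with CI994 and shTet2 with CI994 (x axes). Points are libraries and bars their mean. Xirp2 and Il1a stay under 2 CPM in the other groups shown, and Cdh1 is high and Vim low in both shTet2 groups. Ackr3 is at 14.2 and 15.6 CPM in the joint group against at least 44.1 CPM in the other groups shown.

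Which genes reach a change that neither single treatment gives was asked by testing the joint group directly against each single treatment. CI994 added to shTet2 changed 3108 genes (24.3%, with 12.6% rising and 11.7% falling), and shTet2 added to CI994 changed 2039 genes (15.9%, with 6.68% rising and 9.24% falling). A gene was counted as beyond both single treatments if it passed in the joint change and, in the same direction, in both of these tests. The groups with the shRNA against Mbd3 have no part in this rule, so such a gene can have a like level there. Neither difference contains an untreated library, but the spread behind the tests is estimated over all 6 groups. The 2 tests passed 7368 and 5189 genes without untreated replicate 1. There were 662 such genes (5.17%), of which 388 rose (3.03%) and 274 fell (2.14%). In all 388 both joint libraries lay above the other 6 libraries, and in all 274 below them. Among all genes tested, 22.3% had both joint libraries above the other 6 and 16.7% below. Both direct differences were at least 2-fold for 153 rises and 50 falls. Without untreated replicate 1 the class grew to 1304 rises and 1169 falls (19.3%), with 386 of the 388 and all 274 among them. Leaving out untreated replicate 2 instead also enlarged the class, so the growth is not particular to replicate 1. Either omission takes the untreated pair out of the estimated spread, and keeping the call there is a weak check. With the GC trend removed 311 of the 388 rises and 221 of the 274 falls kept it. The calls rest on 2 libraries per group: 116 of the 388 rises and 46 of the 274 falls kept the call in each of 8 fits that left out 1 of the 8 libraries. Without joint replicate 1 it was kept by 128 and 61 genes, the lowest of the 8 fits. Each gene whose fits are counted below kept the call in the 2 fits without an untreated library, which are the weak check. A gene given with 2 of the 8 fits therefore lost the call whenever a library of the direct tests was left out. Of the 662 genes, 5 have the same 12 values as another gene, as near-identical copies can.

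Of the 388 rises, 143 also rose with each single treatment, 52 only with shTet2, 52 only with CI994, and 6 passed the other way with a single treatment. The remaining 135 passed with neither. Of the 274 falls the numbers were 114, 46, 29 and 4, and 81 passed with neither. Without untreated replicate 1 in the single-treatment tests, 123 of the 135 and 65 of the 81 still passed with neither. A call missed by both single treatments was a much wider class: 1388 genes rose jointly with neither single treatment passing, and for 1049 of these neither direct test passed in that direction.

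**Figure D3:**
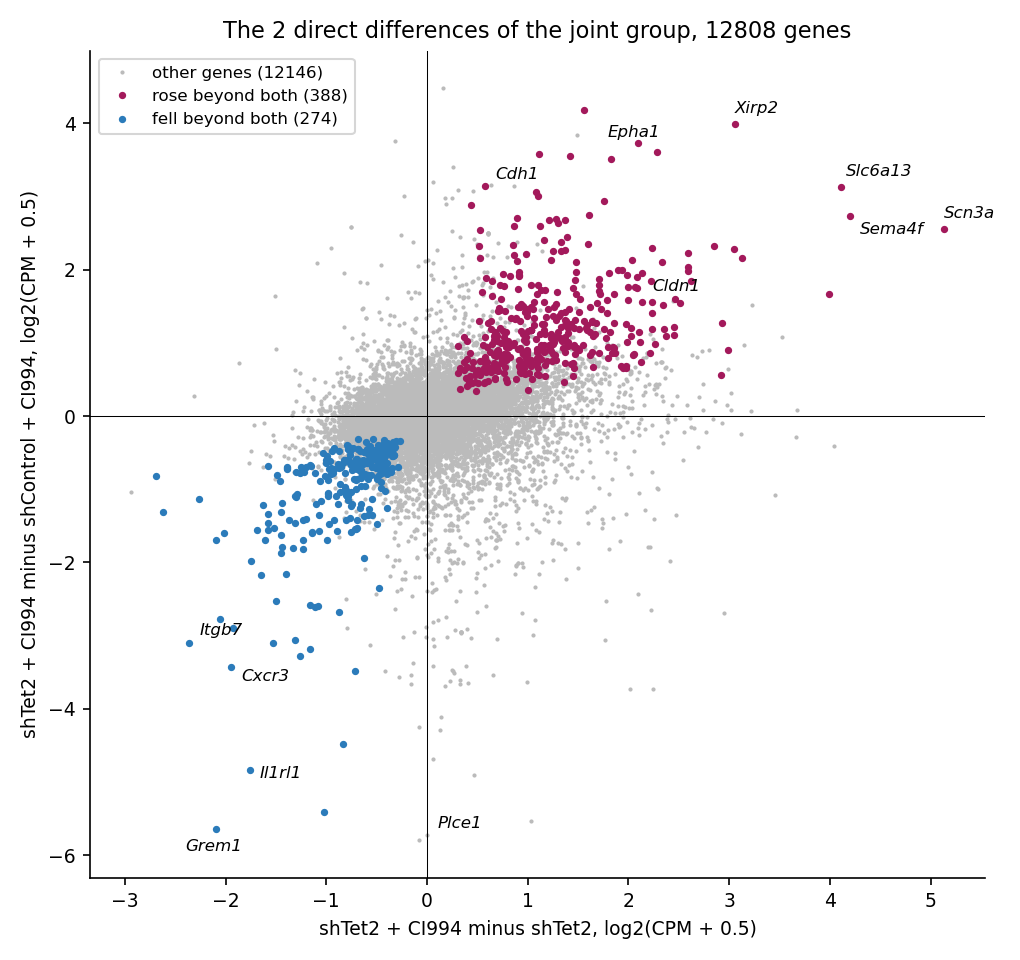
Each point is 1 of 12808 genes, with its log2 difference of the joint group from shTet2 alone (x axis) and from CI994 alone (y axis). The 388 genes that rose beyond both fill the upper right, with Scn3a, Slc6a13, Sema4f and Xirp2 marked, and the 274 that fell fill the lower left, with Itgb7, Grem1, Cxcr3 and Il1rl1 marked.

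The rises beyond both single treatments, ranked by the smaller of the 2 direct differences, were led by Slc6a13, Xirp2, Sema4f and Scn3a. Slc6a13, a GABA transporter, had 0 reads and 1 read in the untreated libraries, and 12.4 and 5.95 CPM in the joint ones. From the 427 and 1 reads of the pairs its ratio was 396 (95% counting interval 70.8 to 15690). With shTet2 alone it stood at 0 and 0.0498 CPM and with CI994 at 0.841 and 0.302 CPM, and neither passed. Xirp2, an actin-binding protein of striated muscle, had no read in untreated cells and 466 in the joint pair, at least 144-fold higher from a floor of 3 reads over the untreated pair. Its 11.2 and 8.94 CPM compare with 0.661 and 0.797 CPM for shTet2 and 0.280 and 0.0503 CPM for CI994. Sema4f, a transmembrane semaphorin, was at 0.229 and 0.623 CPM in untreated cells, 0.283 and 0.398 CPM with shTet2 and 2.08 and 1.66 CPM with CI994, and reached 18.2 and 12.8 CPM. Scn3a likewise had no increase with shTet2 alone (0.0472 and 0 CPM) and reached 2.68 and 2.57 CPM with CI994 alone, and yet its joint level exceeded the latter by a log2 difference of 2.56 (adjusted p = 4.49e-05).

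A cytokine of the interleukin-1 family and the antagonist of its receptor were among these rises. Il1a, which encodes the cytokine interleukin-1 alpha, was at 0.275 and 0.144 CPM untreated, 1.04 and 1.74 CPM with shTet2, 0.0400 and 0.201 CPM with CI994, and 8.03 and 7.42 CPM with both. Il1rn, the antagonist of the interleukin-1 receptor, was at 0.412 and 0.958 CPM untreated and no higher than 1.16 CPM in any single-treatment library. It reached 6.59 and 5.01 CPM in the joint group (log2 change 2.42 ± 0.28, adjusted p = 0.000199), and neither single treatment passed. Without untreated replicate 1 shTet2 alone passed as a fall of Il1rn (-0.94, adjusted p = 0.0349). Neither single treatment passed either for Fry, a scaffold protein of the cytoskeleton, at 1.88 and 1.39 CPM untreated, 0.992 to 1.91 CPM over the single treatments and 8.87 and 11 CPM jointly. Each of these 3 genes kept the call in all 8 fits with 1 library left out.

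The desmosomal cadherin Dsg2 rose from 0.412 and 0.192 CPM to 19.9 and 13.1 CPM, with 1.70 and 1.74 CPM for shTet2 and 3.04 and 2.57 CPM for CI994. Cldn1, a tight junction claudin, rose from 8.92 and 8.19 CPM to 51.8 and 74.8 CPM, with 12 to 17.9 CPM over the single treatments. With the shRNA against Mbd3 plus CI994, Dsg2 was at 14.1 and 14.7 CPM and Cldn1 at 51.5 and 50.3 CPM. Their joint levels are therefore not particular to the Tet2 knockdown. Epha1 exceeded shTet2 alone by a log2 difference of 2.29 and CI994 alone by 3.62. Cyp21a1, a steroid hydroxylase, had 324 reads in the joint pair and 1 in the untreated pair, a ratio of 301 (53.6 to 11910), and Slc22a14, of an organic ion transporter family, had 268 and 3, a ratio of 82.9 (28.1 to 405). Unlike Dsg2 and Cldn1, Cyp21a1 was low with the shRNA against Mbd3 plus CI994, at 0.421 and 0.124 CPM against 7.73 and 6.30 CPM in the joint group. All 12 rises selected by size kept the call in all 8 leave-one-out fits and with the GC trend removed. The 12 are Slc6a13, Xirp2, Sema4f, Scn3a, Dsg2, Epha1, Il1rn, Fry, Cyp21a1, Slc22a14, Il1a and Cldn1. They were picked for large differences in these same libraries, so keeping the call is a weak check.

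The falls beyond both were led by Itgb7, Grem1, Gcnt4 and Cxcr3. Itgb7, an integrin subunit of leukocyte adhesion, was at 17.8 and 45.5 CPM untreated, 7.04 and 10.8 CPM with shTet2, 12.6 and 19.2 CPM with CI994, and 1.01 and 1.83 CPM with both. Its joint log2 change was -3.99 ± 0.40, and -4.59 without untreated replicate 1. Grem1 was at 48.9 and 72.8 CPM untreated and 0.338 and 0.671 CPM jointly, with 2.60 and 4.88 CPM for shTet2. CI994 alone, at 37.1 and 64.5 CPM, overlapped the untreated libraries. Grem1 lost the call in 1 fit, that without joint replicate 1. Gcnt4, a glycosyltransferase, fell from 60.9 and 60.1 CPM to 3.30 and 2.77 CPM, and Gpnmb, a transmembrane glycoprotein, from 107 and 181 CPM to 5.07 and 5.86 CPM. Ackr3, an atypical receptor that scavenges the chemokine Cxcl12, was at 44.1 to 50.8 CPM over the 4 single-treatment libraries, and its change with shTet2 alone was -0.49 (adjusted p = 0.0465). Jointly it fell from 52.0 and 77.7 CPM to 14.2 and 15.6 CPM (-2.10 ± 0.15, adjusted p = 1.41e-05). In cells with the shRNA against Mbd3, Ackr3 was at 38.0 and 35.6 CPM, and at 15.6 and 17.3 CPM with that shRNA plus CI994. The low level is therefore not particular to the joint group.

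The falls Cxcr3, Bpifb4 and Chdh passed with neither single treatment. Cxcr3, a chemokine receptor, was at 5.63 and 14.8 CPM untreated, 17.3 and 21.4 CPM with CI994, and 0.845 and 2.01 CPM jointly, a log2 change of -2.43 (-3.03 without untreated replicate 1). Its call was lost without shTet2 replicate 2 or joint replicate 1. Bpifb4 fell from 18.1 and 35.2 CPM to 3.30 and 4.11 CPM and Chdh, a choline dehydrogenase, from 6.54 and 12.7 CPM to 1.48 and 2.32 CPM. They kept the call in 4 and 3 of the 8 leave-one-out fits. For Bpifb4 CI994 alone passed without untreated replicate 1 (-1.38), and both single treatments passed with the GC trend removed (-0.89 for shTet2 and -1.50 for CI994). The clock-related repressor Bhlhe41 (-3.34), Evi2a (-2.68) and the neuronal pentraxin Nptx1 (-3.49) also fell beyond both, and these, Itgb7, Gcnt4, Gpnmb, Il1rl1 and Ackr3 kept it in all 8.

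**Figure D4:**
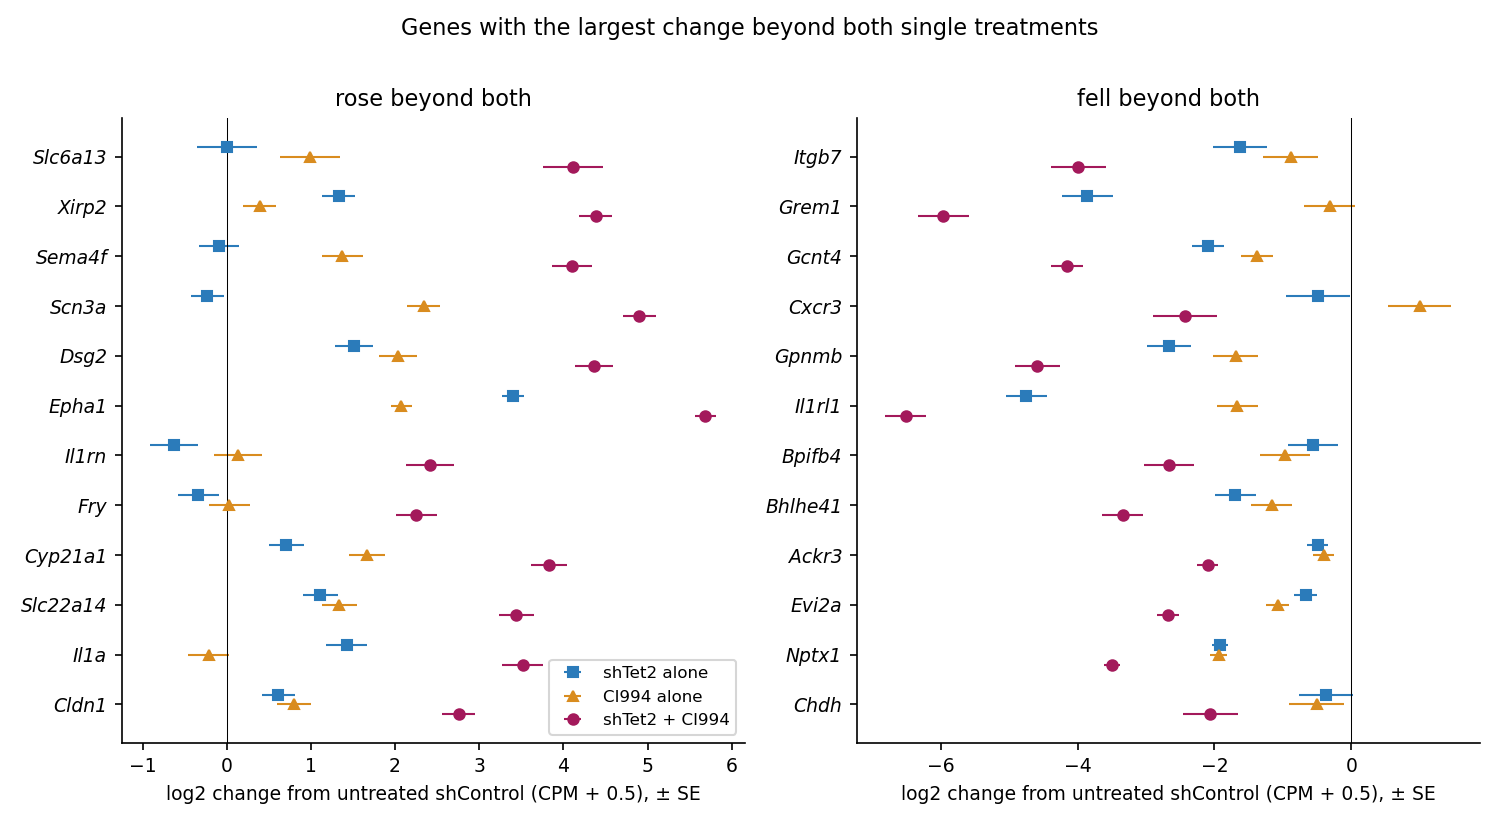
Log2 change from untreated shControl with its standard error (x axis) for shTet2 alone (squares), CI994 alone (triangles) and both (circles), for the 12 largest rises (left) and 12 largest falls (right) beyond both single treatments. In Slc6a13, Il1rn and Fry on the left and Cxcr3, Bpifb4 and Chdh on the right neither single treatment passed.

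Promoters are shown for a receptor gene that rose with each treatment and further with both (Epha1), for 2 genes near 0 before that rose mainly with both (Xirp2, Il1a) and for a gene that fell with each (Itga8), because Tet2 acts on methylated CpG sites. The sequences are the 250 bases before the start site, from RefSeq on build GRCm38.p6, 5′ to 3′ on the gene's strand, with CpG sites in capitals. They lie at chr6:42373269-42373518 (minus strand, Epha1), chr2:67445752-67446001 (plus strand, Xirp2), chr2:129309973-129310222 (minus strand, Il1a) and chr2:12301945-12302194 (minus strand, Itga8).
Epha1: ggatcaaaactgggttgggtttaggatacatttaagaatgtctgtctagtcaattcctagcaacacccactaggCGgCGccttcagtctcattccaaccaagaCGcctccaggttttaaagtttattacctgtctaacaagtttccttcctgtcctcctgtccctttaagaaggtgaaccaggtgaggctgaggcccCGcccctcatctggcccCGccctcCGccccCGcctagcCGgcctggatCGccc
Xirp2: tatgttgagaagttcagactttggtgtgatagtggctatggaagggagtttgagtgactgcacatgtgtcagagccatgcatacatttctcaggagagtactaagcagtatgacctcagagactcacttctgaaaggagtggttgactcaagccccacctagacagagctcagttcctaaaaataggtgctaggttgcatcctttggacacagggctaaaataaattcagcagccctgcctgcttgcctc
Il1a: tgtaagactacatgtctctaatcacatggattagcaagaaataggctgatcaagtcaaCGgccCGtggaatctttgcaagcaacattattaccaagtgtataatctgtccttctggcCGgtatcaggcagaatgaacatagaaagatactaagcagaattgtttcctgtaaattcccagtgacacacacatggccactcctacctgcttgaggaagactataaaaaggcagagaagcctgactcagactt
Itga8: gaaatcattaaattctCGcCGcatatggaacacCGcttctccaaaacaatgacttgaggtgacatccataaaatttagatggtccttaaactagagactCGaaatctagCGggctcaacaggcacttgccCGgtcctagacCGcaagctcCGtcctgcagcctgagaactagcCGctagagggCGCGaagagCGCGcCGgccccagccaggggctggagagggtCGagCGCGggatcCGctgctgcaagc
Epha1 holds 9 CpG sites, Xirp2 0, Il1a 3 and Itga8 18 in this window, beside a median of 6 over all 32851 promoter windows of this length and 15 over those of the tested genes that have an entry. The E-box letters CACCTG, searched on both strands, begin 71 bases before the start of Epha1 and are absent from the other 3 windows. They occur in 17.2% of all windows. The AP-1 letters TGANTCA begin 107 bases before the start of Xirp2 and 12 before that of Il1a, are absent from the others, and occur in 6.75% of all windows. These are matches of letters, not sites shown to be bound, and DNA methylation was not analysed here.

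The departure of the joint log2 change from the sum of the single log2 changes, the interaction, passed for 88 genes (0.687%), 53 above the sum (0.414%) and 35 below (0.273%). It passed for 25 of the 388 rises beyond both and for 5 of the 274 falls. This count leaned on single libraries. It was 815 without untreated replicate 1 and 4900 without replicate 2, and 0 without shTet2 replicate 1 or without joint replicate 1, where 1117 and 1009 genes had an unadjusted p under 0.05. For 225 genes the single treatments passed in opposite directions. The joint change of 77 of these followed shTet2, that of 50 followed CI994, and 98 did not pass. Ccl2, a monocyte chemokine, shows the last kind, with 19.3 and 13.3 CPM untreated, 1.98 and 1.10 CPM with shTet2, 103 and 100 CPM with CI994, and 17.7 and 13.5 CPM with both. Its relative Ccl7 had the same order, at 2.47 and 1.63, 0.189 and 0.149, 35.2 and 36.6, and 3.25 and 1.52 CPM. Sele, an endothelial selectin gene, followed shTet2 (joint log2 change -1.63) and the complement protease C1s1 followed CI994 (2.00).

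Epithelial genes rose nearly throughout. Of 36 tested genes of adhesion and polarity, 28 rose and 0 fell with shTet2 alone (median log2 change 1.54). With CI994 alone 23 rose and 1 fell (median 0.89). In the joint change 33 rose and 0 fell, with a median of 1.97 beside -0.00 over all genes (30 and 1 with the GC trend removed). Of all genes 29.7% rose and 29.3% fell. Without untreated replicate 1 the count was again 33, with a median of 1.74. Cdh1, which encodes E-cadherin, was at 16.3 and 25.7 CPM untreated, 202 and 207 CPM with shTet2, 34.7 and 36.6 CPM with CI994, and 319 and 320 CPM with both (3.89 ± 0.16). Its step from shTet2 to both was 0.57 (adjusted p = 0.0297), and that call was lost in 6 of 8 leave-one-out fits. Epcam rose by 2.29, and its joint level, 197 and 203 CPM, differed by only 0.04 from shTet2 alone (adjusted p = 0.813). Of the list, 9 rose beyond both (21 without untreated replicate 1): Cdh1, Cldn1, Dsg2, Ocln, Spint1, Cgn, Marveld3, Ppl and Erbb3. As for all genes, counts beyond both were higher without that library in most other lists, such as 8 against 2 rises in antigen presentation and 11 against 5 falls in the cell cycle. Ocln, a tight junction protein, went from 1.88 and 1.92 CPM to 24.2 and 19.5 CPM and kept the call in 7 of the 8 fits, whereas Spint1, Cgn, Marveld3 and Ppl lost it with the GC trend removed. In that fit 7 of the list and 627 of all genes rose beyond both, and in the main fit 3.03% of all genes did. Of the 9, Cdh1, Cgn, Marveld3, Ppl and Erbb3 kept the call only in the 2 fits without an untreated library.

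Epithelial regulators followed, with 10 of 12 tested genes rising and 1, the factor Klf4, falling (-1.01), beside 29.7% and 29.3% of all genes. The splicing factor Esrp1 rose from 13.6 and 17.3 CPM to 295 and 286 CPM (4.16), close to the 236 and 252 CPM of shTet2 alone, and Esrp2 rose by 3.30. Grhl2, an epithelial transcription factor, rose by 1.12 and was lower than with shTet2 alone by 0.43 (adjusted p = 0.0245). Elf3 and Ovol2 rose beyond both, by 1.96 and 1.81, and kept that call in 2 and 3 of the 8 leave-one-out fits, Ovol2 not with the GC trend removed. The 2 fits of Elf3 were those without an untreated library.

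Transcription factors of the epithelial-mesenchymal transition mostly fell, 12 of 20 tested falling and 4 rising, with a median log2 change of -0.998. Over all genes 29.3% fell and 29.7% rose. Prrx1 fell from 234 and 168 CPM to 9.04 and 8.81 CPM (-4.44 ± 0.18), with 20.0 and 19.3 CPM for shTet2 and 50.7 and 61.5 CPM for CI994, and kept the beyond-both call in all 8 fits. Tbx3 (-3.75) and Sox9 (-1.36) also fell beyond both, in 6 and 3 of the fits. Zeb1 fell by 1.85, from 57.8 and 52.1 CPM to 15.8 and 14.7 CPM, with shTet2 alone at 18.4 and 17.3 CPM. Members rising included Snai1, from 1.69 and 5.08 CPM to 13.3 and 14.2 CPM (1.99, and 1.37 without untreated replicate 1), Snai2 (0.99) and Msx2 (1.15). The Snai2 call was lost without joint replicate 1 (0.90).

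The mesenchymal matrix and cytoskeleton genes did not move as a group, 13 of 24 tested rising and 7 falling (median 0.66, and 0.30 with the GC trend removed), beside 29.7% and 29.3% of all genes. Vim, which encodes the intermediate filament vimentin, fell by 1.87, from 1461 and 1525 CPM to 416 and 422 CPM, and CI994 alone left it at 1659 and 1691 CPM. S100a4, a calcium-binding protein, fell beyond both (-0.95), in 4 of the 8 fits. Acta2, smooth muscle actin, was low already and fell from 2.01 and 1.73 CPM to 0.0845 and 0.0894 CPM (-2.04). CI994 alone left Acta2 at 0.200 and 0 CPM (-2.02). Fn1, fibronectin, rose from 2358 and 4099.9 CPM to 8024 and 6858 CPM (1.21). Tnc, the matrix protein tenascin C, rose from 60.1 and 61.8 CPM to 594 and 596 CPM (3.24), below the 727 and 684 CPM of shTet2 alone without passing that test (adjusted p = 0.0641). Cdh2, N-cadherin, rose from 243 and 248 CPM to 438 and 470 CPM (0.84), beyond both in 4 of the 8 fits, and Ncam1 rose by 1.36. Loxl1, a matrix cross-linking enzyme, rose beyond both (1.49) and did not pass with the GC trend removed (0.37).

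**Figure D5:**
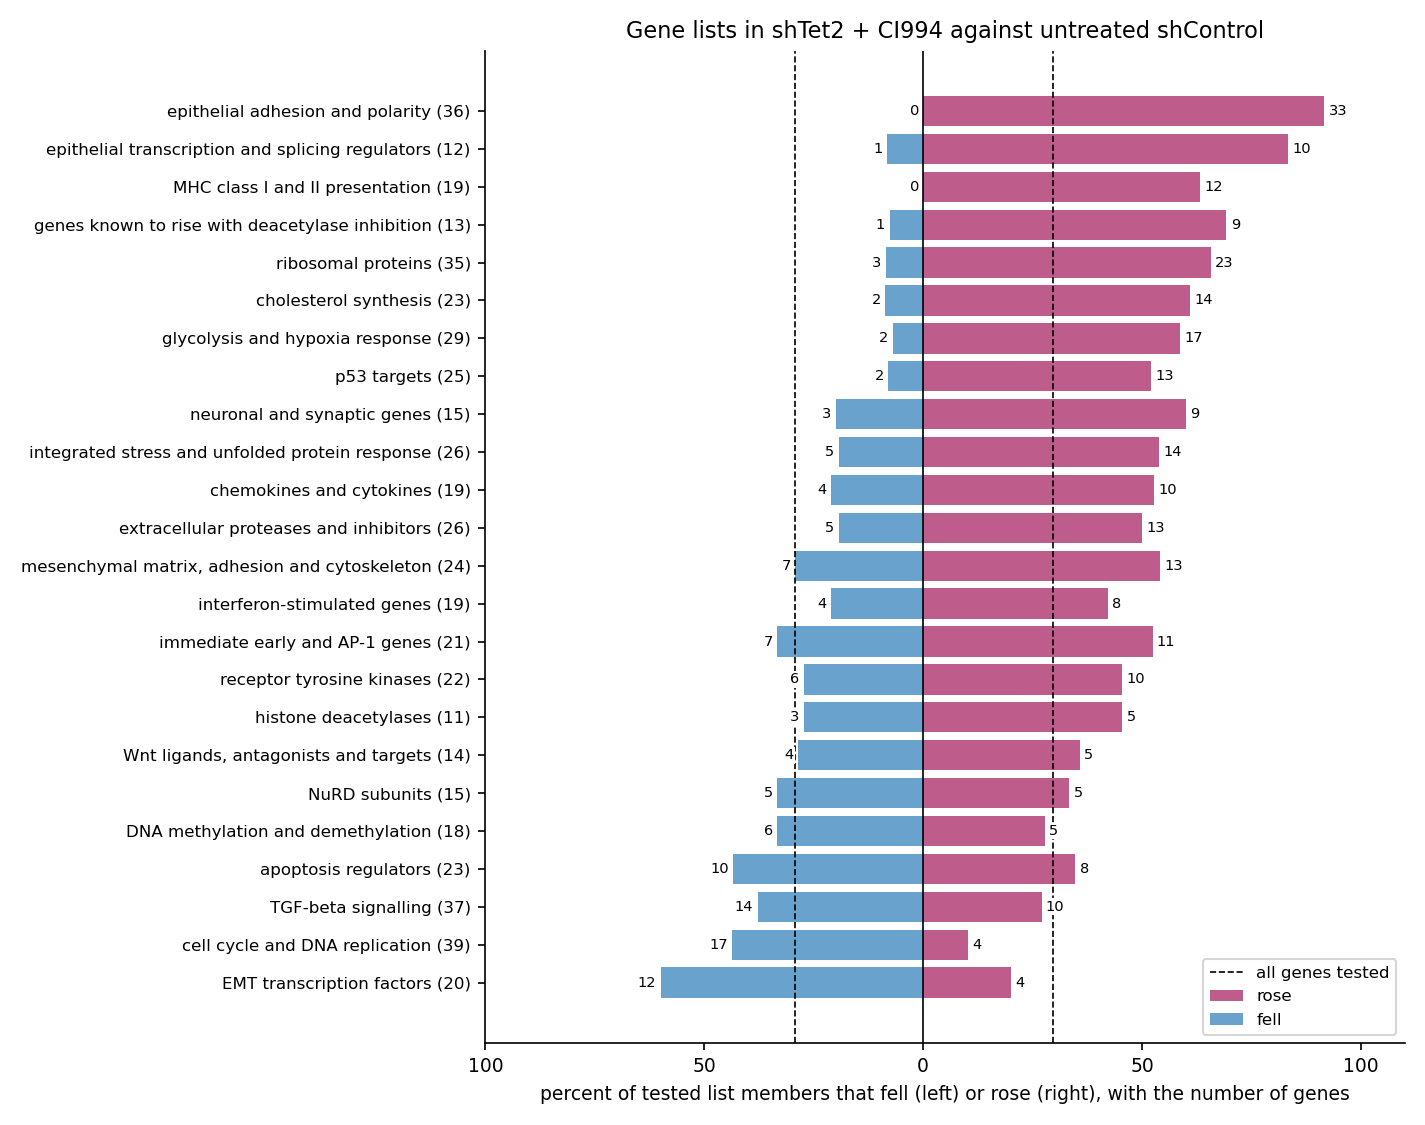
Percent of tested members of each gene list that rose (right) or fell (left) in the joint change (x axis), with the number of genes at each bar and the number tested in parentheses. Dashed lines are the shares over all genes tested, 29.7% and 29.3%. Epithelial lists extend farthest to the right and the list of EMT transcription factors farthest to the left.

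In the TGF-beta pathway 10 of 37 genes rose and 14 fell, a share near that of all genes, with a median of 0.00. The target Ccn2 rose from 54.5 and 46.6 CPM to 470 and 559 CPM (3.29 ± 0.16), exceeding 149 and 150 CPM with shTet2 and 146 and 147 CPM with CI994. The receptor Tgfbr2 rose from 155 and 141 CPM to 328 and 302 CPM (1.05). Both kept the beyond-both call in all 8 leave-one-out fits. Ccn1 (2.27) rose beyond both as well, in 4 of the 8 fits, and not with the GC trend removed. The activin subunit Inhba rose by 1.60, and the signal transducers Smad2 (-1.05) and Smad5 (-1.28) and the co-receptor Tgfbr3 (-2.19) fell.

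Among 22 receptor tyrosine kinases 10 rose and 6 fell, beside 29.7% and 29.3% of all genes. Ret rose from 2.24 and 1.82 CPM to 48.2 and 35.8 CPM (4.02 ± 0.22), with 16.2 and 13.4 CPM for shTet2 and 8.85 and 5.83 CPM for CI994, and kept the beyond-both call in all 8 fits, as did Epha1. Erbb3 rose by 2.84 and kept it in 2. Pdgfrb, a receptor of mesenchymal cells, fell from 22 and 57.6 CPM to 4.99 and 4.61 CPM (-2.81, and -3.44 without untreated replicate 1), and Mertk fell by 1.39. Of 14 genes of Wnt signalling 5 rose and 4 fell, with the ligand Wnt7b at 1.98 and the antagonist Sfrp1 at -1.99. Rnf43 and Wnt9a rose beyond both (1.43 and 1.03), and both lost that call with the GC trend removed, where the joint change of Wnt9a (0.29) did not pass either. Of 26 extracellular proteases and their inhibitors 13 rose and 5 fell. The plasminogen activator Plat rose by 2.53 and Adamts5, a proteoglycan-cleaving enzyme, by 3.64, while the gelatinase Mmp9 fell by 1.10. Plat and Mmp9 were beyond both, in 2 and 4 of the 8 fits.

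Antigen presentation genes rose, 12 of 19 tested against 0 that fell, with a median of 1.40 (1.02 without untreated replicate 1, where 13 rose and 2 fell, and 0.85 with the GC trend removed). With CI994 alone 13 rose and 0 fell (median 0.93), and with shTet2 alone 5 rose and 1 fell (median -0.21). CI994 added to shTet2 raised 14 and lowered 0, whereas shTet2 added to CI994 raised 2 and lowered 0. With the GC trend removed 12 rose and 3 fell in the joint change. Nlrc5, the transactivator of MHC class I genes, rose from 0.641 and 1.01 CPM to 24.4 and 19.9 CPM (4.08 ± 0.18) and stood at 2.08 and 2.64 CPM with shTet2 and 9.09 and 8.50 CPM with CI994. It was beyond both in all 8 leave-one-out fits. H2-D1 rose from 39.9 and 68.0 CPM to 551 and 464 CPM (3.23), beyond both in 2 of the fits, and H2-K1 rose by 2.49, and reads of these similar genes may be shared between them. Of 19 interferon-stimulated genes 8 rose and 4 fell, beside 29.7% and 29.3% of all genes. Bst2 rose by 1.89 and Isg15 by 2.06, and Gbp2 fell by 2.08. Rsad2, Cxcl10 and Irf7 rose beyond both from very low levels: Rsad2 had 45 reads against 1, a ratio of 41.8 (7.12 to 1686), and Cxcl10 34 against 1, a ratio of 31.6 (5.29 to 1283). Irf7 reached 2.58 and 2.15 CPM and lost the call with the GC trend removed. Of 19 chemokines and cytokines 10 rose and 4 fell, with Cxcl16 at 2.90 and Cxcl1 at 2.56, and Cxcl16 was beyond both in 4 of the 8 fits.

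Cell cycle and replication genes fell more often than they rose, 17 of 39 against 4, with a median of -0.22 (22 against 2 without untreated replicate 1). E2f8, a repressor of the E2F family, fell from 187 and 209 CPM to 76.3 and 81.5 CPM (-1.36 ± 0.10) and kept the beyond-both call in all 8 leave-one-out fits. The cyclins Ccnd1 (-0.72) and Ccnb1 (-0.85), the kinase Cdk2 (-0.44) and the helicase subunit Mcm6 (-1.08) were also beyond both, in 5, 4, 2 and 4 of the fits. Ccnb1 lost that call with the GC trend removed. Top2a fell by 1.44, from 2419 and 1706 CPM to 800 and 737 CPM, and Ccnd3 rose by 1.85. Of 5 cyclin-dependent kinase inhibitors 2 rose, among them Cdkn1a, which encodes p21, from 90.3 and 110 CPM to 210 and 200 CPM (1.00). The shares to set beside both lists are 29.7% rising and 29.3% falling over all genes tested.

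Of 25 p53 targets 13 rose and 2 fell, with Plk2 (2.88), Btg2 (2.74), Sesn2 (2.35) and Aen (1.28) rising beyond both. Plk2, a stress-induced kinase, went from 85.9 and 52.0 CPM to 497 and 519 CPM, with 141 to 195 CPM over the single treatments. The calls of these 4 were kept in 5, 5, 2 and 6 of the 8 leave-one-out fits. The integrated stress response and the unfolded protein response, with 26 genes in 1 list, had 14 rises and 5 falls (median 0.49, and 0.11 with the GC trend removed). Its factor Atf3 rose from 0.915 and 1.29 CPM to 16.4 and 16.8 CPM (3.39 ± 0.15), beyond both in all 8 fits, and Chac1 rose by 1.83. Of 23 apoptosis regulators 8 rose and 10 fell, beside 29.7% and 29.3% of all genes. Bcl2l1 (1.40) and the effector Bak1 (1.31) rose, and Bcl2 fell by 1.34.

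Of 21 immediate early and AP-1 genes 11 rose and 7 fell, beside 29.7% and 29.3% of all genes (median 0.72, and 0.20 with the GC trend removed). Egr2, a zinc-finger factor, was at 2.93 and 3.21 CPM untreated, 3.07 and 3.24 CPM with shTet2 and 2.76 and 2.87 CPM with CI994, and fell to 0.930 and 1.16 CPM with both (-1.24 ± 0.16, adjusted p = 0.000292). It kept the beyond-both call in all 8 fits, although neither single treatment passed. For Fosl1 neither single treatment passed either, and it fell from 121 and 153 CPM to 85.8 and 85.7 CPM (-0.70). With the GC trend removed its joint change was -1.64 and CI994 alone passed as a fall (-0.84, adjusted p = 0.0287). Egr3 fell by 2.19. Their calls were kept in 4 and 3 fits. Fos (1.56), Jund (1.62), Fosl2 (1.20) and Dusp1 (2.56) rose. Jund, at 15.4 and 21.1 CPM against 51.3 and 66.1 CPM, did not pass with the GC trend removed (0.20). Fos and Jund were beyond both in 2 and 3 fits, and neither was with the GC trend removed.

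Of 18 DNA methylation and demethylation genes 5 rose and 6 fell, and of 15 NuRD subunits 5 rose and 5 fell, shares near the 29.7% and 29.3% of all genes. Tet1, the relative of Tet2, had 133 reads in the untreated pair and 3 in the joint pair, a ratio of 47.8 (16.0 to 235), with 0.0472 and 0 CPM in the libraries of shTet2 alone. Gadd45b, linked to demethylation and stress, rose beyond both (1.91) and lost that call with the GC trend removed. The methyltransferase Dnmt3a rose by 0.63. Of 11 histone deacetylases 5 rose and 3 fell. Among the class I targets of CI994, Hdac1 rose by 0.30, Hdac2 fell by 0.82 (-0.37 without untreated replicate 1), Hdac3 fell by 0.25, and Hdac8 did not pass (-0.13, and 0.38 with the GC trend removed). Hdac2 and Hdac3 did not pass with the GC trend removed (-0.25 and -0.03), and Hdac1 did not pass without joint replicate 1 (0.26) or joint replicate 2 (0.33). Hdac7 rose by 1.75 (1.04 without untreated replicate 1), Hdac11 by 1.73, and Hdac9 fell by 1.41. Among the NuRD subunits Gatad2a was at 1.22 and Mta3 at 0.78.

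Of 13 genes known to rise with deacetylase inhibition, 9 rose and 1 fell in the joint change (median 1.11), beside 29.7% and 29.3% of all genes. With CI994 alone 6 rose and 1 fell (median 0.76), and with shTet2 alone 3 rose and 0 fell. Gsn, the actin-severing protein gelsolin, rose from 96.1 and 255 CPM to 859 and 849 CPM (2.40, and 1.76 without untreated replicate 1). The list of neuronal genes had 9 rises and 3 falls among 15 tested (median 0.96, and 0.16 with the GC trend removed). It also holds Rest, the repressor of neuronal genes, and its corepressors Rcor1 and Rcor2, which many cell types express: Rcor2 is 1 of the rises, Rcor1 1 of the falls, and Rest did not pass. Stmn2, a microtubule regulator of neurons, had 126 reads in the joint pair and 2 in the untreated pair, a ratio of 58.5 (15.9 to 488). Neither single treatment passed (CI994 alone did with the GC trend removed, at 0.97). The highest single-treatment library was at 0.352 CPM against 3.21 and 2.24 CPM jointly, and Stmn2 kept the beyond-both call in all 8 fits. Gap43, a growth cone protein, rose beyond both (1.93). Of 27 germline genes 4 could be tested, and Mov10l1, a helicase of the piRNA pathway, rose from 0.183 and 0.240 CPM to 1.61 in both joint libraries, beyond both in 3 of the 8 fits.

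Of 29 glycolysis and hypoxia genes 17 rose and 2 fell (median 0.64), beside 29.7% and 29.3% of all genes. In this list 0 rises were beyond both, beside 3.03% of all genes. With shTet2 alone 18 rose and 1 fell (median 0.91), and CI994 added to it raised 2 and lowered 7. No fall was beyond both either. Pfkp, a phosphofructokinase, rose from 20.0 and 27.2 CPM to 143 and 121 CPM (2.43) and was at 157 and 146 CPM with CI994 alone. P4ha2, a collagen prolyl hydroxylase subunit, rose by 1.78. Pdk1 was raised by shTet2 (89.4 and 83.1 CPM against 49.4 and 54.1 CPM) and fell with both, to 35.2 and 27.8 CPM (-0.76). Of 23 cholesterol synthesis genes 14 rose and 2 fell (median 0.42), beside the same 29.7% and 29.3% of all genes, with Insig1 at 0.88. With shTet2 alone 15 rose and 1 fell (median 0.82), and CI994 added to it raised 0 and lowered 8. In the joint group 1 fall was beyond both, that of the lipid transfer gene Stard4 (-0.41, and 0.04 with the GC trend removed, not passing). In this list 3 rises and 1 fall were beyond both without untreated replicate 1. Ribosomal protein genes, 23 of 35 rising beside 29.7% of all genes, had a median of 0.82, and 0.39 without untreated replicate 1. None of them was beyond both, and 10 were without that library.

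Removing the GC trend moved the joint log2 change of further named genes by more than 1.5-fold without ending the call. Rises that became smaller included the epithelial genes Epha1 (5.10), Esrp2 (2.61), Spint1 (1.44), Elf3 (1.21) and Ovol2 (1.08). Myh14 (3.58), Krt14 (3.75), Cldn3 (3.29), H2-Q5 (3.41) and H2-D1 (2.55) were smaller too. So were B4galnt3 (3.69), Rom1 (3.95), Sema4f (3.28), Cyp21a1 (3.02), Gsn (1.59), Wnt7b (0.96), Rnf43 (0.73) and Snai1 (0.95). Among regulators of growth, stress and death the smaller values were Ccnd3 (1.08), Sesn2 (1.39), Gadd45b (1.12), Chac1 (0.98), Bcl2l1 (0.72) and Bak1 (0.50). The interferon genes Bst2 (1.28) and Irf7 (1.03), the deacetylases Hdac7 (0.69) and Hdac11 (0.88) and the keratins Krt8 (0.55) and Krt18 (0.45) also shrank. Rises became larger for Cldn1 (3.44), Il1a (4.12), Il1rn (3.00), Stmn2 (3.14), Inhba (2.20) and Csn3 (1.79). Falls became larger for Itgb7 (-4.89), Sema7a (-5.85), Bpifb4 (-3.33) and Mmp9 (-1.70).

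Markers of other cell types were checked against the label of a mammary tumour clone. The luminal keratins Krt8 and Krt18 rose by 1.37 and 1.18 (0.60 and 0.62 without untreated replicate 1, and Krt8 at 1.38 and 1.36, not passing, without joint replicate 1 or 2), the milk protein gene Csn3 by 1.00, and Cd24a fell by 1.08. Of 7 tested luminal markers 4 rose and 2 fell, and of 6 basal markers 2 rose and 1 fell, beside 29.7% rising and 29.3% falling over all genes. These lists are too short to tell from those shares. All 11 endothelial markers were below the filter, with at most 0.380 CPM in any of the 8 libraries. Of 15 haematopoietic markers 3 could be tested and 2 rose: Cd68, a lysosomal protein, from 1.05 and 2.06 CPM to 15.8 and 16.6 CPM (3.04), and Lyz2, a lysozyme, from 0.275 and 0.0958 CPM to 4.56 and 2.41 CPM (2.48). Their list summed to 1.92 to 3.02 CPM in untreated cells and 19.3 to 20.9 CPM in the joint group. The leukocyte-defining Ptprc stayed at or under 0.378 CPM in all 8 libraries, and Itgam, Adgre1 and Tyrobp were at 0. Cd68 was beyond both in 5 of the 8 leave-one-out fits.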

How the data were processed

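Total RNA libraries were made with a stranded kit per the labels' protocols, and the submitters' processing notes name STAR and mm10. How reads were counted and whether strand was used is not given in the sources used here, so reads of overlapping and antisense genes may be mixed. The deposited values were CPM per Entrez gene, and every value was a whole multiple of 1 read within 0.01, so reads were recovered in 100% of values. A 0 allows up to 3 reads, 0.120 to 0.186 CPM. Symbols, coordinates and promoters came from RefSeq GRCm38.p6, where 80 gene IDs had no match. Coordinates are 1-based.

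The test was limma 3.58.1 (R 4.3.3) on log2(CPM / TMM factor + 0.5), moderated by eBayes (trend and robust both on), over 6 groups of 2 libraries, with group as the only term. P was adjusted by Benjamini-Hochberg over 12808 genes with a threshold of 0.05, two-sided. A fold or log2 change is on the CPM + 0.5 scale, which understates changes of low genes. Ratios of reads have exact 95% binomial intervals. The members and gene lists were chosen with earlier results of these data known.

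Always nameable were the shRNA targets, the class I deacetylases, 7 markers of the transition (Zeb1, Snai1, Vim, Cdh1, Cdh2, Fn1, Epcam) and Cdkn1a. Added were the 10 largest joint rises and falls with libraries not overlapping, the 12 largest on each side beyond both single treatments, 6 genes with opposed single treatments (each with a mean of at least 5 CPM), and, per gene list, the 3 rises and 3 falls of smallest adjusted p at 1 CPM or more, plus all its members beyond both. Numbered gene models were left out, and not every eligible gene is described.

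Alternatives were RLE factors, library size only, pseudocounts of 0.1 and 1, no filter, a block for the replicate number, the 8 libraries alone, edgeR 4.0.16 and DESeq2 1.42.0 on recovered reads, each library's GC trend removed (lowess, span 0.3, GC known for 95.6% of tested genes), and leaving out each library. Removing the GC trend without untreated replicate 1 was chosen after seeing the data. Fewer than 80% of tested genes had a promoter entry (78.8%), so promoter features were not compared between gene sets. The other 8 libraries of the series were not used.

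Some members of the gene lists are not reported here.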

Additional observations from a re-analysis of the deposited data

Results flagged for a closer look

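For the genes named here whose interaction passed, the estimated log2 effect of CI994 differed between shTet2 and shControl cells. The log2 difference (effect in shTet2 minus effect in shControl) was 3.12 for Slc6a13 (adjusted p = 0.0324), 2.92 for Il1rn (0.0210), 2.82 for Sema4f (0.0158), 2.79 for Scn3a (0.0106), 2.67 for Xirp2 (0.0106), 2.56 for Fry (0.0210), 2.31 for Il1a (0.0235) and 2.09 for Stmn2. In these 8 the joint level exceeded what the single log2 changes add up to on the CPM + 0.5 scale. Xirp2 had 0 reads in the untreated pair, Slc6a13 had 1 and Stmn2 had 2. Scn3a and Il1a were also under 0.5 CPM in both untreated libraries. For these genes the added 0.5 CPM largely sets the size of the single changes. Whether their single ratios multiplied would reach the joint level therefore cannot be decided. The log2 difference was 2.03 for Itga8 and 1.97 for Tafa5, which fell with each single treatment and were at or under 0.423 CPM in the joint group. Tafa5 was at 0 CPM in both libraries of shTet2 alone. A further fall with CI994 could not be seen there, so its value does not show a differing effect. It was -2.03 for Pfkp, which was high with each treatment and no higher with both, -1.21 for Ackr3 and -1.10 for Pdk1. All rest on the untreated libraries, and the number of genes passing this test was 0 to 4900 when single libraries were left out.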

How the results depend on the processing

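Depth limits genes with few reads, and 2 libraries per group limit all tests. With 1 library left out, 4809 to 9885 genes passed in the joint change (rises 2330 to 4990, falls 2479 to 4895). The other leave-one-out ranges were 922 to 7374 for CI994 added to the knockdown, 1004 to 5189 for the knockdown added to CI994, 1336 to 8133 for shTet2 alone, 1141 to 9003 for CI994 alone, 0 to 4900 for the interaction, and 128 to 1352 rises and 62 to 1205 falls beyond both. With only the 8 libraries these last 7 counts were 1612, 1233, 1741, 1937, 0 (1083 at an unadjusted p under 0.05), 232 and 97. With the GC trend removed 3719 genes passed for the knockdown added to CI994, 4870 for shTet2 alone, 536 for the interaction, and 627 rises and 538 falls were beyond both. With the GC trend removed and the replicate block the counts were 5237, 4685, 5843, 1131, 861 and 815 for the 2 direct tests, shTet2 alone, the interaction and rises and falls beyond both. With the GC trend removed without untreated replicate 1 they were 6000, 5437, 4904, 1009, 1049 and 956. The interaction count was 88, and 56 with a pseudocount of 0.1, 38 by edgeR and 267 by DESeq2.

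The labels do not say that a replicate number marks an experiment, so the numbers were not taken as pairs. Across genes the joint pair's replicate deviation correlated at 0.0957 with that of untreated cells and at 0.222 to 0.373 with those of the other 4 groups. With the replicate block 8341 genes passed jointly, 175 for the interaction, and 521 rises and 446 falls were beyond both.

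Of 6300 values of 315 gene results under alternatives, 5891 kept direction and call, 395 lost the call, 3 gained it and 11 reversed. The reversed values belong to joint changes that did not pass. Ccl2 was at 0.34 with the GC trend removed (with and without the block), 0.23 without untreated replicate 1, 0.10 without joint replicate 2 (leave-one-out range -0.41 to 0.23) and 0.45 with the GC trend removed without untreated replicate 1. Ccl7 was at -0.19 without untreated replicate 2 and -0.35 without joint replicate 1 (leave-one-out range -0.35 to 0.54). Hdac8 was at 0.38 with the GC trend removed (with and without the block) and 0.15 when untreated replicate 1 was also left out, where Mbd3 was at -0.16. The causes were not tested.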
